A study of Mus musculus with 10 samples.

Results

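The 6 genes of type IV collagen, Col4a1 to Col4a6, were followed in the ectoderm of mouse (Mus musculus) forelimb buds. They were chosen by their symbols, as the 6 members of the family among 55401 genes in the count table, with the double knockout against wild-type values of these same libraries already known. Those values are therefore given as a description, with no test. The 3 libraries labelled double knockout (DKO) came from embryos labelled as knockouts of both Sp8 and Sp6, zinc finger transcription factors of the limb ectoderm, at E9.75 (E for embryonic day). The 3 wild-type (WT) libraries came from littermates at E9.75. In both groups forceps were used to peel the ectoderm from about 2 buds per replicate, once 0.25% trypsin had acted for 20 min in the cold. The labels do not name the alleles, the strain or the embryo behind each library. The labels also list Sp6 knockouts (2 samples) and their WT littermates (2 samples) at E10.5, which were not analysed here. The libraries are called DKO 17, DKO 40, DKO 41, WT 32, WT 53 and WT 56 after the columns of the table.

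Type IV collagen is the collagen of basement membranes, the thin sheet of matrix under every epithelium. Its chains wind into trimers inside the cell, of which the common form joins α1 and α2 chains, another joins α3, α4 and α5, and another joins α5 and α6. The trimers are secreted and bind to each other at their ends, which makes a network rather than fibrils. The genes sit in pairs that point away from each other from a shared start region. In the mouse, the ubiquitous α1 and α2 chains are needed for stable embryonic basement membranes, and the α5 and α6 chains are found under skin and other epithelia. In people, mutations of COL4A3, COL4A4 or COL4A5 cause Alport syndrome, a disease of the kidney, ear and eye.

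In the GENCODE M21 annotation of GRCm38, the start sites of Col4a1 (chromosome 8, 11198423 to 11312826, minus strand) and Col4a2 (chromosome 8, 11312805 to 11449287, plus strand) lay so close that their first exons shared 22 bases. Col4a4 (chromosome 1, 82448423 to 82586849, minus strand) and Col4a3 (chromosome 1, 82586921 to 82722059, plus strand) started 72 bases apart. Col4a6 (chromosome X, 141165403 to 141474076, minus strand) and Col4a5 (chromosome X, 141475385 to 141689234, plus strand) started 1309 bases apart. Partners of a pair start near each other, and the factors named in the knockout labels belong to the SP family. The best known DNA element of that family is the GC box, so the start regions of the abundant genes are shown. Binding of SP factors to these regions was not tested. They are RefSeq windows of 250 bases before to 50 after a start on GRCm38.p6, 5′ to 3′ on the gene's own strand. Capitals mark the GC box (GGGCGG or, on the other strand, CCGCCC) and the CCAAT box (CCAAT or ATTGG). The window of Col4a2 (chr8:11312555-11312854) also holds the start of Col4a1. The windows of Col4a5 (chrX:141475169-141475468) and Col4a6 (chrX:141474027-141474326) do not meet.
Col4a2: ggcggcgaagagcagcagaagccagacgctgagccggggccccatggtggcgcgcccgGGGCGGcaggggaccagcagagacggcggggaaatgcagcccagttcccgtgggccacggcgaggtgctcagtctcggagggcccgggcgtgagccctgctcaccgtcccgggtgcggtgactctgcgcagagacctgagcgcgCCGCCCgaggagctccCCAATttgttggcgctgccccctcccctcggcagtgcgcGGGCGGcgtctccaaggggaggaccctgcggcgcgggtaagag
Col4a5: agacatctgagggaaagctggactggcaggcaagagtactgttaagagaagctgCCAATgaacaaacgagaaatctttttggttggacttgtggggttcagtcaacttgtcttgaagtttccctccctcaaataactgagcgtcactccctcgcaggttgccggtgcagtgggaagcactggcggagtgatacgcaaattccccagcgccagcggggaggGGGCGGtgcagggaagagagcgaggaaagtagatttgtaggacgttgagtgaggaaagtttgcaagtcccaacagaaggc
Col4a6: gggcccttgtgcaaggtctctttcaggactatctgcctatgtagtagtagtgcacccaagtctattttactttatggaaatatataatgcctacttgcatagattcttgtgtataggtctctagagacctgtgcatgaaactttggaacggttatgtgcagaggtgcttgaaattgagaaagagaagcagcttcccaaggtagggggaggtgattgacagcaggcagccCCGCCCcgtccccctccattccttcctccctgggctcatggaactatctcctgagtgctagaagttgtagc

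The Col4a2 window held 3 GC boxes and 1 CCAAT box, in 73.7% G and C. Col4a5 had 1 of each in 52.7% G and C, and Col4a6 had 1 GC box and 0 CCAAT boxes in 48.3% G and C. Among 32851 RefSeq windows of the same length, 35.7% held at least 1 GC box and 37.4% at least 1 CCAAT box, so a match of either is common. The median window had 52.7% G and C, below that of Col4a2. Whether 3 GC boxes are many for a window so rich in G and C was not tested. RefSeq windows were matched for 5 of the 6 genes, and the start of Col4a3 is named only.

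Library totals ranged from 64432348 to 87040786 counts and levels are given as CPM (the share of a library's counts on a fixed scale, after TMM scaling). Both targeted genes were lower in DKO. Sp8 averaged 3.68 ± 1.90 CPM in DKO and 36.2 ± 6.22 CPM in WT (SD, n = 3 each) and passed the test (edgeR adjusted p = 0.000811). Sp6 averaged 74.7 ± 59.7 CPM in DKO and 286.8 ± 50.7 CPM in WT and did not pass (adjusted p = 0.206), and DKO 17 still had 133 CPM. Exons of Sp6 share 3329 bases with the transcript Gm11532, and the counts carry no strand. Markers of surface ectoderm were abundant in every library: 12 summed to between 2517 and 3390 CPM in DKO and between 3920 and 4257 CPM in WT. Markers of blood (9 genes) summed to 917.8, 127.2 and 27.0 CPM in DKO 41, DKO 40 and DKO 17. In WT 53 they summed to 300.8 CPM, and in WT 32 and WT 56 to under 1 CPM. Xist, the RNA of the inactive X chromosome, was at 46.6 CPM in DKO 40 and 32.6 CPM in WT 53 and under 1 CPM in the other libraries, so each group had 1 library with Xist. The table pools the RNA of whole sheets, so fewer cells of a kind and less RNA per cell cannot be told apart. The labels do not say that the replicates of a group came from separate litters, so errors and p-values measure only the spread between these libraries.

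The chains split by pair. Col4a5 and Col4a6 stood several times higher in DKO than in WT, Col4a1 and Col4a2 stood somewhat lower, and Col4a3 and Col4a4 were barely detected in either group. Of the 6 genes, 5 passed the filter on low counts and Col4a4 did not. By the threshold set on all genes (edgeR quasi-likelihood test, adjusted p under 0.05), 2 of the 5 were called, Col4a5 and Col4a6, both higher in DKO. Over all 19126 genes tested, 4.51% were called, 1.70% higher and 2.81% lower. The libraries of the groups did not overlap for 3 of the 5 (Col4a2, Col4a5 and Col4a6), against 21.9% of all genes tested. Because the genes were named with this contrast known, nothing is read from these counts.

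**Figure D1:**
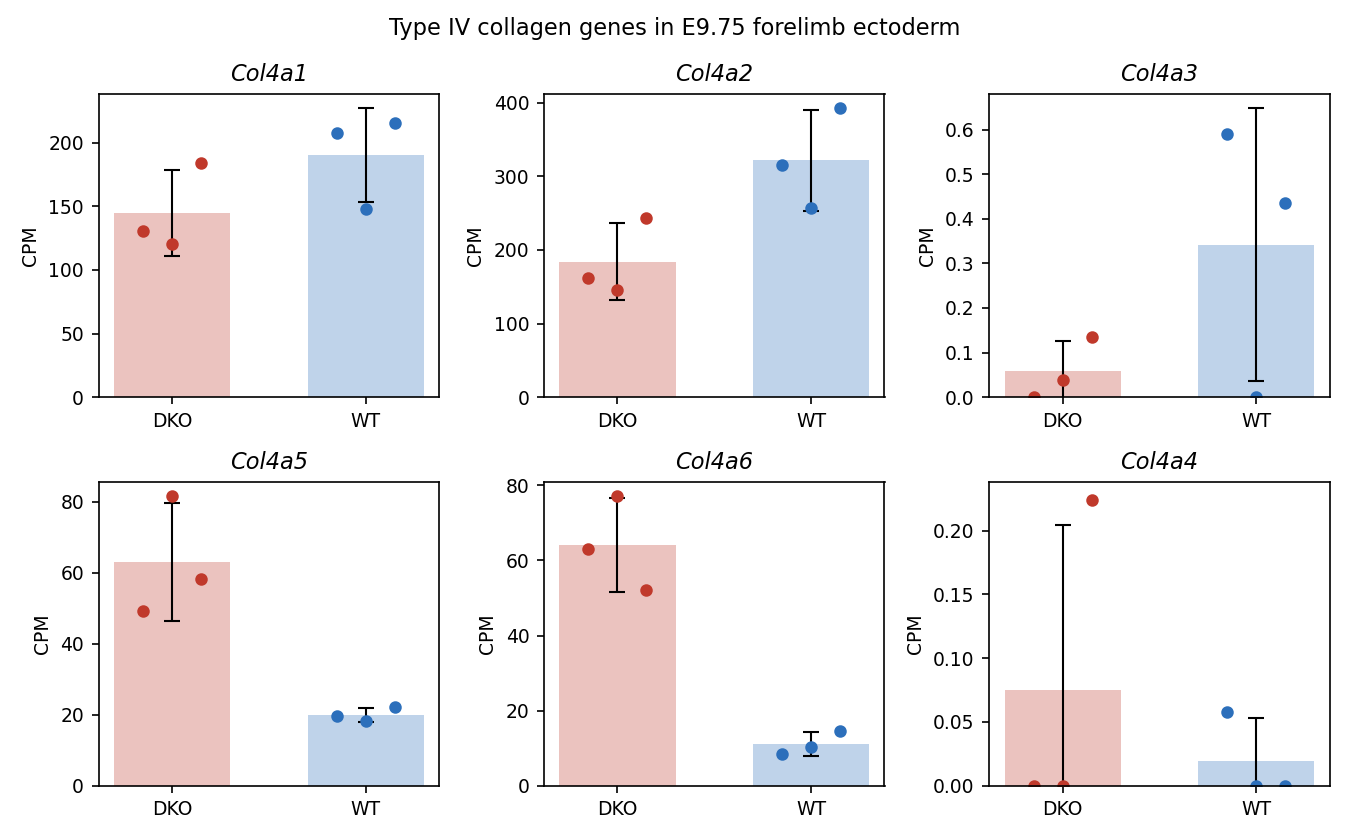
CPM of each type IV collagen gene in the DKO and WT libraries, with a separate linear axis per gene; points are libraries, bars are means and error bars are SD (n = 3 each, cut at 0). All DKO points lie above all WT points for Col4a5 and Col4a6, while Col4a3 and Col4a4 stay under 1 CPM in every library.

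Col4a6, which encodes the α6 chain, stood at 63.1 (DKO 17), 77.1 (DKO 40) and 52.0 CPM (DKO 41), against 8.48 CPM in WT 32, 10.3 in WT 53 and 14.5 in WT 56. The lowest DKO library stood well above the highest WT library. Its log2 fold change was 2.52 (SE 0.232), a level 5.74-fold higher in DKO. With 1 library left out at a time the log2 fold change was between 2.32 and 2.77.

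Col4a5, which encodes the α5 chain, stood at 49.1 (DKO 17), 81.5 (DKO 40) and 58.3 CPM (DKO 41), against 19.6 CPM in WT 32, 18.2 in WT 53 and 22.2 in WT 56. Here too the groups did not overlap, and the WT libraries lay close together. The log2 fold change was 1.65 (SE 0.207), or 3.13-fold higher, and between 1.42 and 1.80 with 1 library left out. DKO 40 held the most Col4a5 and the most Col4a6.

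Both genes are X-linked, and DKO 40 was the DKO library with Xist. Without DKO 40 and WT 53, which leaves the libraries with transcripts of the Y chromosome, the log2 fold change was 1.36 for Col4a5 and 2.33 for Col4a6; this setting was chosen after seeing the data. Of 698 X-linked genes tested, 17 were called higher (2.44%) and 11 lower, and their median log2 fold change was 0.07, against 0.03 over all genes tested.

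Markers of limb mesenchyme moved unevenly beside Col4a5 and Col4a6. The 12 summed to 226, 461 and 319 CPM in DKO 17, DKO 40 and DKO 41, against 434, 416 and 393 CPM in WT 32, WT 53 and WT 56. DKO 40 had the highest sum, but each WT sum was above those of DKO 17 and DKO 41. The sums mix genes that moved in opposite directions, so they do not rank the libraries by mesenchyme. In WT 56, Col1a2 and Pdgfra were at 267 and 94.5 CPM, but Tbx5, Fgf10 and Hand2 were at 0.0572, 0 and 0 CPM. These 3 were at 2.81, 0.237 and 0.0632 CPM in WT 53, and at 13.0, 4.64 and 2.20 CPM in WT 32. In DKO 17 they were at 1.01, 0.180 and 1.06 CPM, and in DKO 41 at 3.28, 2.03 and 0.829 CPM. Col1a2 was the largest part of the WT sums, at 204, 316 and 267 CPM in WT 32, WT 53 and WT 56. It was at 99.7, 162 and 173 CPM in DKO 17, DKO 40 and DKO 41, the opposite direction to Col4a5 and Col4a6. Prrx2 was at 83.0, 174 and 65.4 CPM in DKO 17, DKO 40 and DKO 41, against 49.4, 37.3 and 18.5 CPM in WT 32, WT 53 and WT 56 (edgeR adjusted p = 0.0902). Twist1 was at 20.4, 46.7 and 21.4 CPM in DKO 17, DKO 40 and DKO 41, against 14.8, 3.06 and 1.47 CPM in WT 32, WT 53 and WT 56 (adjusted p = 0.135). Both were higher in each DKO library than in any WT library and highest in DKO 40, as Col4a5 and Col4a6 were, although neither passed. Prrx1 showed no such split, at 3.51, 23.3 and 12.8 CPM in DKO 17, DKO 40 and DKO 41, against 29.0, 1.61 and 0.412 CPM in WT 32, WT 53 and WT 56. Pdgfra, the 1 marker of the list that was called, fell to 2.57, 10.1 and 10.3 CPM in DKO 17, DKO 40 and DKO 41, against 67.8, 37.4 and 94.5 CPM in WT 32, WT 53 and WT 56 (log2 fold change -3.13, adjusted p = 0.00699). The part of mesenchyme in the level of Col4a5 and Col4a6 was not tested.

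Col4a2, which encodes the α2 chain, stood at 162 (DKO 17), 146 (DKO 40) and 243 CPM (DKO 41), against 315 CPM in WT 32, 256 in WT 53 and 393 in WT 56. DKO 41 came nearest to WT 53, and no DKO library reached a WT library. The log2 fold change was -0.81 (SE 0.215), a level 1.75-fold lower in DKO, and between -1.07 and -0.65 with 1 library left out.

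Col4a1, which encodes the α1 chain, stood at 131 (DKO 17), 120.2 (DKO 40) and 184 CPM (DKO 41), against 208 CPM in WT 32, 148 in WT 53 and 216 in WT 56. These groups overlapped, since DKO 41 stood above WT 53. The log2 fold change was -0.40 (SE 0.195), or 1.32-fold lower, and between -0.61 and -0.28 with 1 library left out.

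Endothelial cells are a rich source of α1 and α2 chains, so their markers were read beside these values. Of 12 endothelial markers, 10 were under 1 CPM in every library, Cdh5 had 0 CPM in all 6 libraries, and Kdr was at 0.41 CPM or less in DKO and 0 CPM in WT. The list summed to between 56.2 and 80.8 CPM in DKO and between 36.2 and 50.9 CPM in WT, nearly all of it Egfl7. Without Egfl7 it reached at most 6.85 CPM. The mesenchyme markers did not move 1 way. The fibrillar collagen gene Col1a2 was at 99.7, 162 and 173 CPM in DKO 17, DKO 40 and DKO 41. It was at 204, 316 and 267 CPM in WT 32, WT 53 and WT 56 (edgeR adjusted p = 0.0705), and Pdgfra was lower in DKO too. Prrx2 and Twist1 went the other way, with log2 fold changes of 1.62 and 2.14, and neither passed. Prrx1 and Col3a1 had changes of 0.28 and 0.27. Surface ectoderm markers were lower in DKO, with 3 of 12 called lower (Epcam, Cdh1 and Perp) and 1 higher (Krt8). Over all genes tested, 2.81% were called lower and 1.70% higher. Markers of the apical ectodermal ridge, the signalling edge of the limb bud, summed to between 440 and 683 CPM in DKO and between 2324 and 2848 CPM in WT, with 7 of 12 called lower. Macrophage markers stayed under 1 CPM in every library, and 8 markers of extraembryonic endoderm summed to between 2.85 and 8.98 CPM in DKO and between 0.632 and 1.29 CPM in WT. Sox17 carried that difference, at 7.96, 4.16 and 1.83 CPM in DKO 17, DKO 40 and DKO 41, against 0.0579, 0.300 and 0.229 CPM in WT 32, WT 53 and WT 56 (adjusted p = 0.0124). Without Sox17 the list reached at most 1.42 CPM in DKO and 1.06 CPM in WT, and Afp had 0 CPM in all 6 libraries. DKO 41 had the most of both ectoderm markers and Col4a1 and Col4a2 among the DKO libraries. The part of these cells in the level of the collagens was not tested.

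Col4a3 and Col4a4 encode the α3 and α4 chains, which are best known from the filtering membrane of the kidney. Col4a3 had 0 counts in DKO 17, 3 in DKO 40 and 12 in DKO 41, against 51 counts in WT 32, 0 in WT 53 and 38 in WT 56. Each group thus held a library with none. Its log2 fold change of -2.61 had an SE of 1.11, and it ran between -4.22 and -2.03 with 1 library left out. Exons of Col4a3 share 563 bases with the transcript C430014B12Rik, which these unstranded counts may not separate. Col4a4 had 20 counts in DKO 41 and 5 in WT 32 and 0 in the other libraries. For a gene with 0 counts over a whole group, 3 counts were taken as the largest amount allowed. That is 0.0120 CPM in DKO and 0.0127 CPM in WT. Col4a3 had 15 counts over DKO and 89 over WT, and Col4a4 had 20 and 5, so this floor applies to neither gene.

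Levels of different genes were compared as CPM per kb of exon. In DKO the order was Col4a2 (27.8 ± 7.88), Col4a1 (19.4 ± 4.57), Col4a5 (9.37 ± 2.48) and Col4a6 (8.03 ± 1.57 CPM per kb). In WT the order was the same, with Col4a2 at 48.6 ± 10.3, Col4a1 at 25.5 ± 4.95, Col4a5 at 2.98 ± 0.299 and Col4a6 at 1.39 ± 0.385 CPM per kb (SD, n = 3). The neighbours in WT were separated by more than their SD. In DKO, Col4a5 and Col4a6 differed by less than theirs, and with the longest transcript as the length their order turned, at 9.63 CPM per kb for both after rounding. Col4a2 stood above Col4a1 in each of the 6 libraries.

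The make-up of the type IV collagen transcripts differed in the same way. Col4a5 and Col4a6 together made up 26.6% in DKO 17, 36.4% in DKO 40 and 19.8% in DKO 41, against 5.0% in WT 32, 6.41% in WT 53 and 5.48% in WT 56. Their sum per kb was 17.4 ± 3.80 in DKO and 4.37 ± 0.649 CPM per kb in WT. The sum of Col4a1 and Col4a2 was 47.2 ± 12.4 CPM per kb in DKO and 74.1 ± 14.9 in WT. All 6 genes together came to 57.2, 59.9 and 76.6 CPM per kb in DKO 17, DKO 40 and DKO 41, against 79.5, 62.6 and 93.4 in WT 32, WT 53 and WT 56, and these ranges overlapped. For each unit of Col4a1 and Col4a2 there were 0.362, 0.572 and 0.248 units of Col4a5 and Col4a6 in DKO 17, DKO 40 and DKO 41. In WT 32, WT 53 and WT 56 there were 0.0527, 0.0685 and 0.0580.

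**Figure D2:**
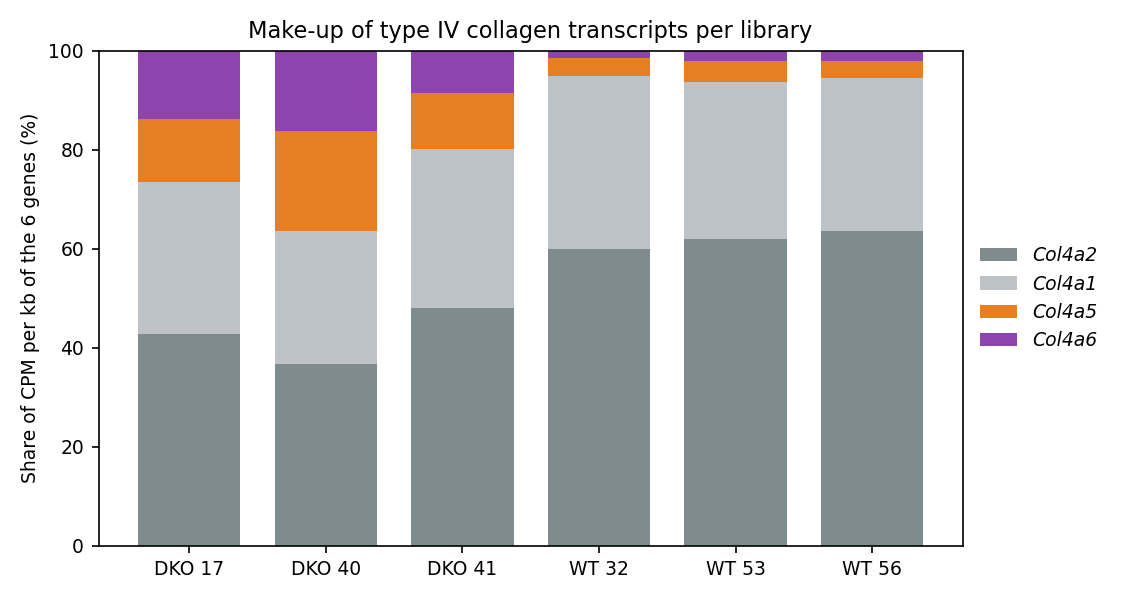
Share of each gene in the summed CPM per kb of the 6 type IV collagen genes, for each library (Col4a3 and Col4a4 stay under 0.1% and are not drawn). Col4a5 and Col4a6 fill 19.8% to 36.4% of the DKO bars and 5.0% to 6.41% of the WT bars.

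Partners of a pair did not keep a fixed ratio. Per kb, Col4a5 stood at 0.924, 1.25 and 1.33 times Col4a6 in DKO 17, DKO 40 and DKO 41, so the partners were near balance. It stood at 2.74, 2.09 and 1.82 times Col4a6 in WT 32, WT 53 and WT 56. The log2 ratio averaged 0.21 ± 0.28 in DKO and 1.13 ± 0.30 in WT (SD, n = 3 each), and the groups did not overlap. Col4a1 stood at 0.714, 0.731 and 0.670 times Col4a2 in DKO 17, DKO 40 and DKO 41, and at 0.584, 0.512 and 0.487 times in WT 32, WT 53 and WT 56. The log2 ratio averaged -0.51 ± 0.06 in DKO and -0.93 ± 0.14 in WT. In each pair, then, the partner that was the scarcer in WT was nearer to its partner in DKO.

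**Figure D3:**
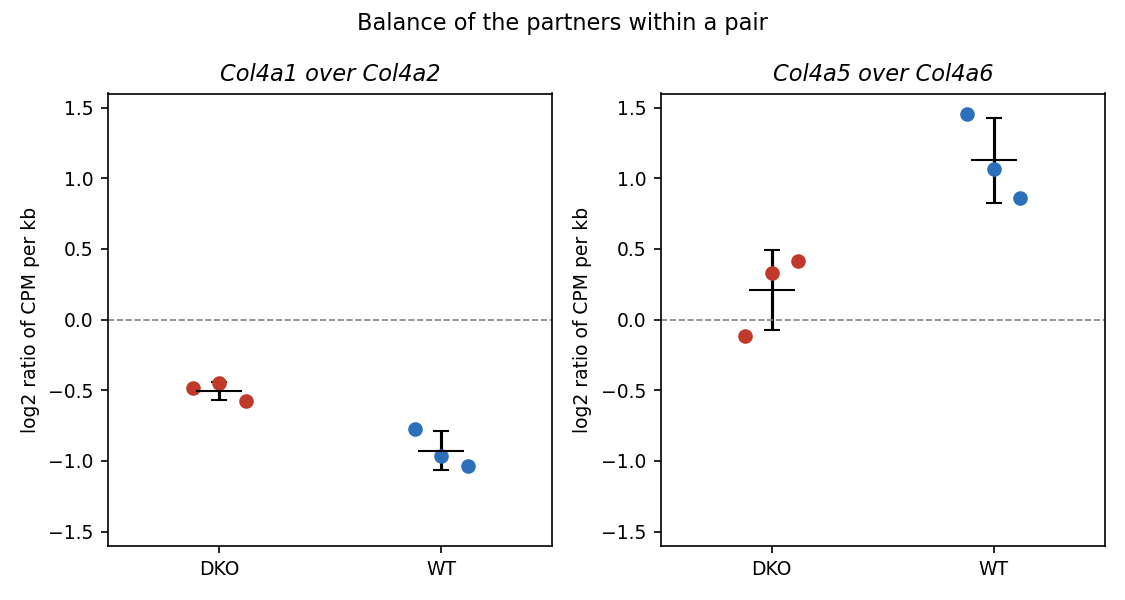
Log2 ratio of CPM per kb of the partners of a pair; points are libraries, horizontal marks are means and error bars are SD (n = 3 each). The ratio of Col4a5 to Col4a6 averages 0.21 in DKO and 1.13 in WT, and that of Col4a1 to Col4a2 averages -0.51 in DKO and -0.93 in WT.

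The log2 fold changes of Col4a5 and Col4a6 differed by 0.87 and those of Col4a1 and Col4a2 by 0.41. For comparison, 1043 head-to-head pairs of protein-coding genes with start sites at most 1000 bases apart had both partners tested. Their partners differed by a median of 0.27 (quartiles 0.12 and 0.49), and 54.7% of pairs had the same sign of change. The difference within Col4a1 and Col4a2 was above that of 67.7% of these pairs, and the difference within Col4a5 and Col4a6 above that of 90.0%. These ranks take no account of how far the partners themselves changed. In 3 of the 1043 pairs both partners changed by at least 1 log2 unit, all 3 with the same sign and 2 with both partners higher in DKO. These 2 were 3110070M22Rik with Tmem267 and Cygb with Prcd. Their start distances were -344 and -779 bases, where a negative value means that the partners overlap. The unstranded counts may not separate such partners, and the part of this in their shared direction was not tested. Col4a5 and Col4a6, with starts 1309 bases apart, are not among the 1043.

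**Figure D4:**
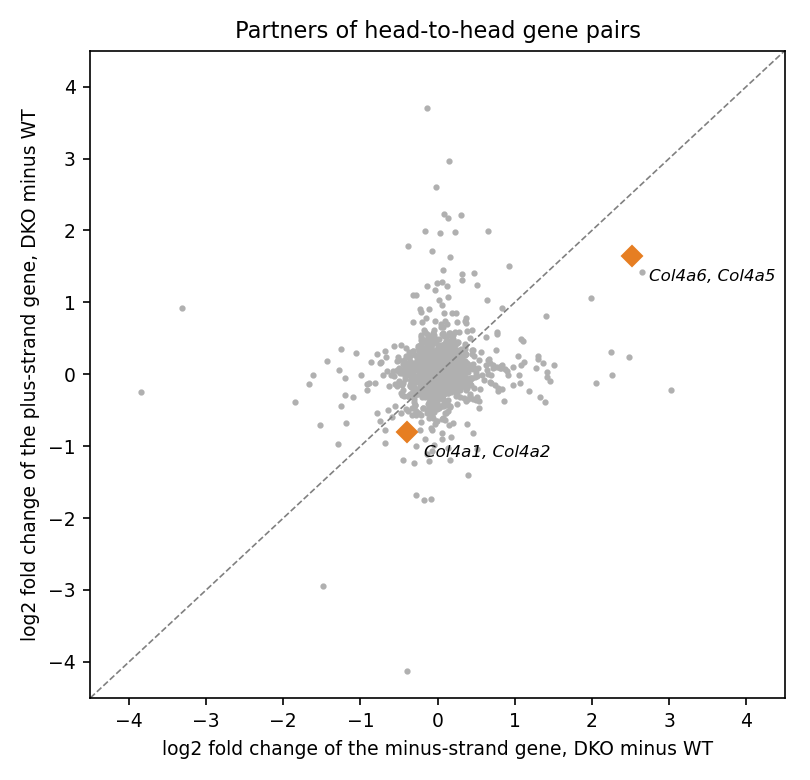
Log2 fold change, DKO minus WT, of the minus-strand gene (x axis) and the plus-strand gene (y axis) of head-to-head pairs; grey points are pairs with starts at most 1000 bases apart, 1 of them outside the axes, and orange diamonds are the type IV collagen pairs with both partners tested. The partners of the grey pairs differ by a median of 0.27, and Col4a6 and Col4a5 lie at 2.52 and 1.65.

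The genes beside the pairs were read as well. Irs2, an adaptor of the insulin receptor that lies 189965 bases from Col4a1, had 37.6, 34.9 and 36.5 CPM in DKO 17, DKO 40 and DKO 41, against 69.7, 81.4 and 56.8 CPM in WT 32, WT 53 and WT 56. It fell, with no overlap of the groups (log2 fold change -0.93, SE 0.156, edgeR adjusted p = 0.0128), and leaving out DKO 40 (adjusted p = 0.0757) or WT 32 (0.0621) ended the call. Rab20, a small GTPase gene on the other side at 4231 bases from Col4a2, was at 5.09 ± 3.33 CPM in DKO and 3.34 ± 0.587 CPM in WT (adjusted p = 0.543), with a log2 fold change of 0.62, or -0.10 without DKO 41. Next to Col4a5 and Col4a6, the autophagy gene Atg4a, at 1133 bases from Col4a6, was at 8.52 ± 0.706 CPM in DKO and 8.75 ± 0.965 CPM in WT (adjusted p = 0.943). Irs4, on the other side at 21764 bases, was too low to be tested. Rhbdd1 and Mff, beside Col4a4 and Col4a3, had log2 fold changes of -0.06 and 0.01.

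The genes most like each chain over the 6 libraries were sought among genes with a mean of at least 5 CPM, by the root mean square difference of log2 CPM after centring. This measure includes the difference between DKO and WT, so genes picked by it share that difference and their levels are no separate result. The ranks of the partners rest on the same measure. For Col4a6 they were Scrn2 (difference 0.253), Gsap (0.279) and 1110032F04Rik (0.339). Scrn2, whose gene lies next to Sp6 in the mouse, was at 349 ± 110 CPM in DKO and 73.3 ± 8.81 CPM in WT. For Col4a5 they were the hedgehog co-receptor gene Cdon (0.109), Ppfibp2 (0.144) and the transcription factor gene Myrf (0.147). Cdon was at 18.7 ± 5.82 CPM in DKO and 5.50 ± 0.542 CPM in WT. Nearest to Col4a2 were Galnt2, Prkch and Zfp59, and nearest to Col4a1 were Net1, Ppm1l and Map4k3, with differences between 0.0385 and 0.108. The partner gene was not the nearest in any case. Among 10951 genes, Col4a5 ranked 21 in likeness to Col4a6, and Col4a6 ranked 239 in likeness to Col4a5. Col4a1 ranked 184 for Col4a2 and Col4a2 ranked 1114 for Col4a1.

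Collagen chains are hydroxylated, glycosylated and folded before they leave the cell. Of 20 genes tested for these steps, 3 fell and 1 rose, where 2.81% of all 19126 genes were called lower and 1.70% higher. Their median log2 fold change was -0.27, against 0.03 over all 19126 genes. P4ha1, the main catalytic subunit of prolyl 4-hydroxylase, had 61.7, 82.1 and 74.1 CPM in DKO 17, DKO 40 and DKO 41, against 139.6, 134.5 and 171 CPM in WT 32, WT 53 and WT 56. It fell 2.05-fold (log2 fold change -1.03, SE 0.149, edgeR adjusted p = 0.00670) and was called whichever library was left out (adjusted p up to 0.0354). The call was lost when a library of each group was left out, at adjusted p = 0.0513 without WT 32 and DKO 41 and 0.0593 without DKO 40 and WT 53.

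Its sister subunit gene P4ha2 fell 1.62-fold to 52.9, 51.8 and 45.3 CPM in DKO 17, DKO 40 and DKO 41, against 66.1, 82.9 and 93.3 CPM in WT 32, WT 53 and WT 56 (edgeR adjusted p = 0.0397). Plod3, which hydroxylates and glycosylates lysines of type IV collagen, fell 1.46-fold to 54.6 ± 1.64 CPM in DKO, against 79.5 ± 4.61 CPM in WT (adjusted p = 0.0332). Both calls rested on nearly all libraries: that of P4ha2 held only without WT 32 and that of Plod3 only without DKO 41. Exons of Plod3 share 529 bases with those of Znhit1. P4ha3, a further subunit gene, rose, with 318, 516 and 262 counts in DKO 17, DKO 40 and DKO 41 and 33 counts in WT 32, the only WT library with any. Its log2 fold change was 4.98 (adjusted p = 0.00598), and without WT 32 it was at least 226-fold higher in DKO. Without WT 56 the log2 fold change was 4.32 and the call was lost (adjusted p = 0.0601), as it was with DESeq2 (adjusted p = 0.153) and legacy=TRUE, an older form of the edgeR test (0.117). The collagen chaperone gene Serpinh1 was at 1805 ± 99.9 CPM in DKO and 2666 ± 609 CPM in WT and did not pass (adjusted p = 0.0828, but 0.0216 with DESeq2 and 0.0337 without WT 32 and DKO 41).

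Among the partners in the basement membrane reported here, 1 gene rose and 16 did not pass, where 1.70% of all genes tested were called higher. Nid2, which encodes a nidogen that bridges laminin and type IV collagen, had 22.5, 61.2 and 48.4 CPM in DKO 17, DKO 40 and DKO 41, against 15.5, 9.11 and 9.97 CPM in WT 32, WT 53 and WT 56. It rose 3.78-fold (log2 fold change 1.92, SE 0.367, edgeR adjusted p = 0.0224). DKO 17 stood far below the other DKO libraries, and the call held only without DKO 17 (adjusted p up to 0.117 without the others). Exons of Nid2 share 437 bases with Rtraf. The other nidogen gene, Nid1, was at 6.14 ± 1.53 CPM in DKO and 7.05 ± 7.26 CPM in WT (adjusted p = 0.873), with a log2 fold change of -0.26, or 0.99 without WT 32.

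Laminin chains of most embryonic basement membranes did not pass in the edgeR fit. Lamb1 was at 138 ± 24.7 CPM in DKO and 218 ± 49.6 CPM in WT (edgeR adjusted p = 0.0873, but 0.0312 with DESeq2). Lamc1 was at 85.6 ± 12.9 in DKO and 125 ± 39.7 in WT (adjusted p = 0.242), and Lama5 at 170 ± 39.0 in DKO and 215 ± 11.2 in WT (adjusted p = 0.316). The perlecan gene Hspg2 was at 74.4 ± 22.2 CPM in DKO and 61.8 ± 9.57 CPM in WT (adjusted p = 0.592).

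Of 8 genes that crosslink or stabilise the network, 0 rose and 1 fell, where 2.81% of all genes tested were called lower. Pxdn encodes peroxidasin, which makes the sulfilimine bonds between type IV collagen trimers. It was at 150.4 ± 9.71 CPM in DKO and 175 ± 39.7 CPM in WT (edgeR adjusted p = 0.541). Lox, a lysyl oxidase gene, had 8, 5 and 0 counts in DKO 17, DKO 40 and DKO 41, against 76, 32 and 60 counts in WT 32, WT 53 and WT 56. It fell, at a low level (log2 fold change -3.72, adjusted p = 0.0207). The change was -4.48 without DKO 17 and -3.11 without DKO 41, and leaving out DKO 17, DKO 40, WT 32 or WT 56 ended the call (adjusted p up to 0.131).

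Of 8 receptor genes, 2 fell, and 1 with any 1 library left out, where 2.81% of all genes tested were called lower. All 8 had a negative log2 fold change, as had 46.9% of all genes tested. For Itga10 (-0.46, SE 0.809), Itga11 (-0.15, SE 1.07), Ddr2 (-0.93, SE 1.13) and Ddr1 (-0.11, SE 0.163) the change was smaller than its SE. Itga2, the α2 subunit of a collagen-binding integrin, had 0 counts in each DKO library, against 75, 22 and 43 counts in WT 32, WT 53 and WT 56. That is at least 47.3-fold lower (edgeR adjusted p = 0.0401), or at least 30.3-fold to 56.5-fold with 1 library left out, and the call was lost without any 1 library (adjusted p up to 0.136). Adgrg6, an adhesion receptor that binds type IV collagen, had 0, 0 and 37 counts in DKO 17, DKO 40 and DKO 41, against 290, 197 and 465 counts in WT 32, WT 53 and WT 56. Its level was 0.138 ± 0.239 CPM in DKO and 3.93 ± 1.21 CPM in WT (log2 fold change -4.74, adjusted p = 0.00582). The call held whichever library was left out, and without DKO 41 the gene was at least 209-fold lower. It was lost with DESeq2 (adjusted p = 0.209), with legacy=TRUE (0.144) and without DKO 40 and WT 53 (0.0805). Exons of Adgrg6 share 441 bases with the antisense gene Gm46212.

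The abundant receptor genes did not pass. Itgb1, the β1 subunit shared by the collagen-binding integrins, was at 176 ± 11.3 CPM in DKO and 219.6 ± 6.49 CPM in WT (edgeR adjusted p = 0.127, and 0.0411 with DESeq2), and the discoidin receptor gene Ddr1 at 130.3 ± 31.2 CPM in DKO and 140.3 ± 2.75 CPM in WT (adjusted p = 0.804). The α1 integrin subunit gene Itga1 was at 0.544 ± 0.213 CPM in DKO and 0.959 ± 0.0773 CPM in WT (adjusted p = 0.398). Exons of Itga1, Ddr1, Nid1 and Irs2 also overlap those of other annotated genes, by 685, 216, 143 and 162 bases.

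Among 7 genes of matrix proteolysis tested, 0 rose and 2 fell, where 2.81% of all genes tested were called lower. Timp3, a matrix-bound protease inhibitor gene, had 2.71, 6.95 and 7.32 CPM in DKO 17, DKO 40 and DKO 41, against 19.9, 23.7 and 30.4 CPM in WT 32, WT 53 and WT 56. It fell 4.36-fold (log2 fold change -2.13, SE 0.325, edgeR adjusted p = 0.00884) and was called whichever library was left out (adjusted p up to 0.0473), but not without DKO 40 and WT 53 (0.105). Timp3 lies within Syn3, whose exons share 1733 bases with it. Mmp2, a gelatinase that cuts type IV collagen, fell 2.14-fold to 62.6 ± 19.4 CPM in DKO, against 133.7 ± 30.8 CPM in WT (adjusted p = 0.0401), and its call was lost without any 1 library (adjusted p up to 0.153). The protease Mmp9, also a gelatinase, was too low to be tested.

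Of 17 genes of other collagens, 1 rose and 1 fell, where 1.70% of all genes tested were called higher and 2.81% lower. Col17a1, a transmembrane collagen of hemidesmosomes, had 2.45, 0 and 2.07 CPM in DKO 17, DKO 40 and DKO 41, against 14.5, 10.3 and 19.8 CPM in WT 32, WT 53 and WT 56. It fell 9.69-fold (log2 fold change -3.28, SE 0.533, edgeR adjusted p = 0.0112), and leaving out WT 32 or WT 56 ended the call (adjusted p up to 0.0576), as did DESeq2 (adjusted p = 0.304) and legacy=TRUE (0.210). Col14a1, a fibril-associated collagen, rose to 3.40 ± 2.25 CPM in DKO, against 0.245 ± 0.0457 CPM in WT (log2 fold change 3.78, adjusted p = 0.0228). Without DKO 40 the change was 3.17, and without any 1 WT library the call was lost (adjusted p up to 0.143). The 17 genes had a median change of -0.24 on the log2 scale.

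**Figure D5:**
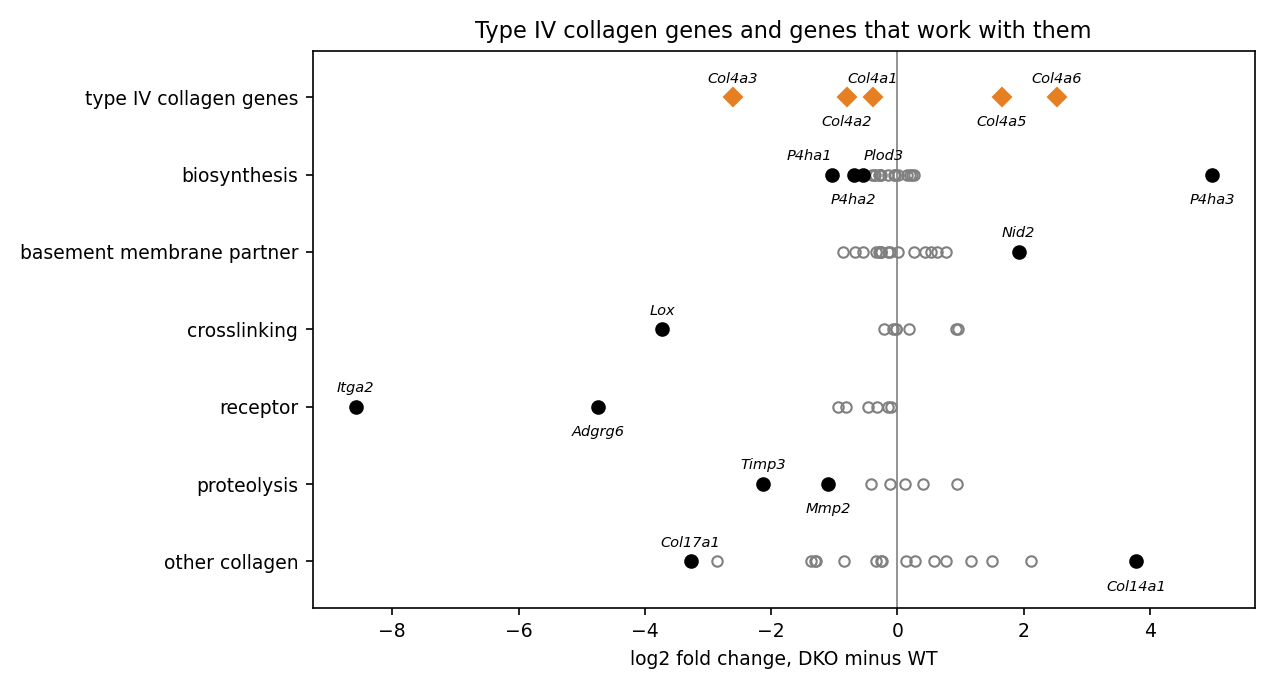
Log2 fold change, DKO minus WT, of the 5 type IV collagen genes that passed the filter (orange diamonds, described without a test) and of the tested genes of 6 lists, as far as reported here; black points passed the threshold (edgeR adjusted p under 0.05) and open circles did not. The fitted value of Itga2, which had 0 counts in DKO, depends on the prior count and is no measure of size.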

How the data were processed

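RNA was measured in peeled E9.75 forelimb ectoderm with SMART-Seq v4 and Nextera XT libraries, per the labels' protocols, a chemistry that keeps no strand and no molecular identifiers, so floors for counts of 0 cover counting error only. What the authors deposited are raw counts, whole numbers for each gene; the submitters' processing notes name FastQC, fastp, HISAT2, Cufflinks, StringTie, DESeq2, GRCm38 and mm10, with versions and roles not given in the sources used here. The 6 columns were assigned to the groups from their names; they carry no replicate number of the labels.

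Counts were fitted with edgeR 4.0.16 in R 4.3.3 over the whole table: genes were filtered by filterByExpr, scaled by TMM and tested by the quasi-likelihood method (robust glmQLFit, legacy=FALSE). Benjamini-Hochberg adjustment ran over 19126 genes, and 0.05 was the threshold for a call. Positive log2 values mean higher in DKO. SEs were obtained from each estimate and its F statistic. Positions and exon lengths came from GENCODE M21, to which 55141 of 55401 identifiers (99.5%) matched; overlaps were taken with bedtools 2.31.1. Alternatives used DESeq2 1.42.0, other size factors, legacy=TRUE, no filter and fewer libraries.

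The members, lists and tests were chosen with earlier results of these data known. All 6 members are named, with every called gene of 6 lists except 1 that is not reported here, 12 partner genes named whether called or not, the nearest protein-coding gene on each side of a pair, and the 3 genes most like each member with a mean of 1 CPM or more.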

Additional observations from a re-analysis of the deposited data

How the results depend on the processing

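No paired analysis was possible because the columns carry none of the replicate numbers of the labels. The log2 fold changes of the 5 tested type IV collagen genes kept their sign in every setting that gave a value; Col4a3 gave none without WT 32 and DKO 41. With 1 library left out they ran from -0.61 to -0.28 for Col4a1, -1.07 to -0.65 for Col4a2, -4.22 to -2.03 for Col4a3, 1.42 to 1.80 for Col4a5 and 2.32 to 2.77 for Col4a6. The difference within a pair ran from 0.34 to 0.49 for Col4a1 minus Col4a2 and from -1.05 to -0.72 for Col4a5 minus Col4a6. Without WT 32 and DKO 41 the first of these was 0.54, and without DKO 40 and WT 53 Col4a5 was at 1.36.

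Counts of calls depended on the setting; the cause was not tested. The 863 genes called became 1738 with DESeq2, 546 with legacy=TRUE, 412 with no filter, 377 without WT 32 and DKO 41, 136 without DKO 40 and WT 53, and 247 to 917 with 1 library left out. With DESeq2, biosynthesis had 5 lower and 0 higher, the basement membrane partners 3 lower, proteolysis 1 higher, and other collagens 2 higher and 2 lower. With legacy=TRUE, 0 biosynthesis genes were higher, 0 crosslinking genes lower, 1 proteolysis and 1 receptor gene lower, and 0 other collagens lower. With no filter, 1 biosynthesis, 1 proteolysis and 1 receptor gene were lower, and 0 genes were called among basement membrane partners and other collagens. Without WT 32 and DKO 41, 1 biosynthesis, 1 proteolysis and 1 receptor gene were lower, with 0 basement membrane partners higher, 0 crosslinking genes lower and 0 other collagens lower. Without DKO 40 and WT 53, 0 genes were called in any of these lists but other collagens, where 1 was lower and 0 higher. With 1 library left out, biosynthesis had 1 to 3 lower and 0 to 1 higher, basement membrane partners 0 to 1 in each direction, crosslinking 0 to 1 lower, receptors 1 lower, proteolysis 1 to 2 lower and 0 to 1 higher, and other collagens 0 to 2 in each direction. These counts do not always hold the genes of the first fit. With DESeq2, P4ha3, Adgrg6 and Col17a1 were not called, and Itgb1, Lamb1 and Serpinh1 were. Without WT 32 and DKO 41, Serpinh1 was called and P4ha1, P4ha2 and Plod3 were not. The calls of P4ha2, P4ha3, Lox, Mmp2, Adgrg6 and Col17a1 were lost with legacy=TRUE, and those of P4ha2, Plod3, Nid2, Itga2, Mmp2, Col14a1 and Col17a1 with no filter.

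The log2 fold changes of 7 named genes that did not pass changed sign in some settings, with no call in those settings. With 1 library left out, Nid1 ran from -0.65 to 0.99, and was at 0.90 without WT 32 and DKO 41. Hspg2 ran from -0.011 to 0.43. Ddr1 ran from -0.32 to 0.027, and was at 0.015 without DKO 40 and WT 53. Rab20 ran from -0.10 to 0.87, and was at -0.11 without WT 32 and DKO 41. Rhbdd1 ran from -0.18 to 0.075. Mff ran from -0.069 to 0.071, and was at -0.0023 with DESeq2 and -0.0073 with no filter on low counts and -0.10 without WT 32 and DKO 41. Atg4a ran from -0.12 to 0.030, and was at 0.061 without WT 32 and DKO 41.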
